A study of Mus musculus with 10 samples.

Results

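The accessible chromatin around 7 mouse genes of nuclear condensation and late red cell maturation, Xpo7, Kmt5a, Hdac2, Trim58, Trim10, Ube2o and Ube2h, was followed through GATA1-driven differentiation. A peak was assigned to a gene when its summit, the position of strongest signal, lay from 50 kb upstream to 50 kb downstream of the gene's span in the GENCODE M21 annotation. This took 242 of 146939 peaks and, after windows of 501 bp around the summits of all libraries were merged, 51 of 28981 regions, for 7 of 21938 protein-coding genes. Position alone chose the regions, so a region named after a gene need not act on it: 10 of the 51 lay within 1 kb of a transcript start of the gene itself (its promoter), 11 lay that close to a start of a neighbouring gene, and 30 were distal. Each region is named by its distance in kb from the gene's start, with plus values in the direction of transcription.

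G1E-ER4 (G1ER) is a single subclone of a Gata1-null mouse erythroid line that constitutively expresses GATA1 fused to the ligand binding domain of the estrogen receptor (GATA1-ER). All 5 groups carry the Gata1 loss and the GATA1-ER transgene and grew in medium with SCF and erythropoietin. The groups differ in the time spent in β-estradiol at 1e-07 M: untreated cells (0 h), and cells at 2, 6, 12 and 24 h, with 2 libraries each, 10 in all. ATAC-seq, which marks open DNA by the insertions of the Tn5 transposase, was run on about 50000 cells per library. The libraries of a time point come from independent experiments according to the study.

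During terminal erythroid maturation the nucleus shrinks, its chromatin condenses and, in mammals, it is expelled. Histone deacetylation, methylation of histone H4 at lysine 20 and export of nuclear proteins accompany the condensation, cytoskeletal motors move the nucleus to the cell edge, and the ubiquitin system then removes ribosomes and other contents from the reticulocyte. Xpo7 encodes exportin 7, a nuclear export receptor that is abundant in erythroblasts. Kmt5a encodes the methyltransferase that places a single methyl group on histone H4 lysine 20, and Hdac2 encodes a histone deacetylase. Trim58 and Trim10 encode erythroid proteins of the tripartite motif family, and TRIM58 is a ubiquitin ligase that acts on the dynein motor. Ube2o encodes a large ubiquitin-conjugating enzyme that marks ribosomal proteins in reticulocytes, and Ube2h encodes a conjugating enzyme that works with the MAEA ligase complex.

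Sequences of 299 bp around the centres of 8 distal regions are printed from the plus strand of GRCm38.p6 (mm10), since the comparisons of presence and rank turn on them. Capitals mark matches, on either strand, to short words of factor binding sites. The GATA word is AGATAA in its usual form and TGATAA in the other. The TAL1-GATA composite is CTG with 7 or 8 further bases before a GATA word, so that a composite match contains a GATA match. The word of the KLF factors is CACACCC in these searches. The core shared by NFE2 and AP-1 is TGAGTCA in these windows, and the word of the ETS factors is CCGGAAG as searched here. The CTCF word, added after the values were seen, is CCNNNAGGNGG with N for any base. Of the regions that were gained or lost, the first 6 have the highest mean percentile, and the last 2, chosen after their values were seen, are the regions with the steepest courses among those present in all libraries.
Xpo7 +53.4 kb, chr14:70713038-70713336: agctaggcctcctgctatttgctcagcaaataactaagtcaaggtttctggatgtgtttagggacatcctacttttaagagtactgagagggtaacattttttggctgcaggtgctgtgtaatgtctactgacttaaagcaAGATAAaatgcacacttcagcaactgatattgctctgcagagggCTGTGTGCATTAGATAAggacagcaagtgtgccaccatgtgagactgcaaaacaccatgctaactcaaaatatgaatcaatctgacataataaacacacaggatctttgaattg
Xpo7 +142.5 kb, chr14:70623956-70624254: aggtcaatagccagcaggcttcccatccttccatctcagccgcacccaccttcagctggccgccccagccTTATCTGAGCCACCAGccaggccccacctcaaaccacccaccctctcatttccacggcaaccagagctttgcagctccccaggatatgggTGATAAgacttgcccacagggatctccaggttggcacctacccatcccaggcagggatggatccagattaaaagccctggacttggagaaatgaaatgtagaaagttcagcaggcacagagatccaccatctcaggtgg
Trim10 −45.4 kb, chr17:36824021-36824319: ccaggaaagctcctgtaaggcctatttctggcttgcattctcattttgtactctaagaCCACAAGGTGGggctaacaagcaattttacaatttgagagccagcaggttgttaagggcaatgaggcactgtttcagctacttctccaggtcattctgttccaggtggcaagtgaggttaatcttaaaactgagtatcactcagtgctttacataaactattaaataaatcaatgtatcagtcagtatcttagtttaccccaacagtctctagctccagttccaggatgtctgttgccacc
Ube2o +80.3 kb, chr11:116500973-116501271: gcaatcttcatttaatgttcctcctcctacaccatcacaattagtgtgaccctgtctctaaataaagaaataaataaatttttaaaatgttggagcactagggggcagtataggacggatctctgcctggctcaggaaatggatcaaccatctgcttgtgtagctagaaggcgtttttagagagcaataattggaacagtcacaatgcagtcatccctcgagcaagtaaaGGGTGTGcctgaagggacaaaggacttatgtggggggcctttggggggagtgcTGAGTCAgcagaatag
Ube2o +8.1 kb, chr11:116573230-116573528: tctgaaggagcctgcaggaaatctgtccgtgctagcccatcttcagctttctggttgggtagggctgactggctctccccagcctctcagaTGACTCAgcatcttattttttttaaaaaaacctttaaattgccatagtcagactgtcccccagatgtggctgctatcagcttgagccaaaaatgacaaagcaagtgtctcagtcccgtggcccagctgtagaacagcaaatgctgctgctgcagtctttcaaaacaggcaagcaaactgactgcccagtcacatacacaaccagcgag
Ube2h +98.7 kb, chr6:30205646-30205944: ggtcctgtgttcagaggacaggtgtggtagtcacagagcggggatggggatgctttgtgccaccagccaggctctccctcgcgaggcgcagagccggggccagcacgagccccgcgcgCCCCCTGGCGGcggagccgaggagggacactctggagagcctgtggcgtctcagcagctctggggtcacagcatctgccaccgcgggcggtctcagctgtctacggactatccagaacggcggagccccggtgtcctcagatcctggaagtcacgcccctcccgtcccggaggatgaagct
Ube2o +74.8 kb, chr11:116506495-116506793: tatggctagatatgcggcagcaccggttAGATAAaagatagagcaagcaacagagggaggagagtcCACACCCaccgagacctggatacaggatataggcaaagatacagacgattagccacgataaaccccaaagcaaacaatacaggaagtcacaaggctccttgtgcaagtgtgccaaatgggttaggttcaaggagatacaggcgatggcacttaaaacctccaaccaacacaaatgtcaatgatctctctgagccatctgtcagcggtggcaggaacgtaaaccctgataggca
Ube2h −3.3 kb, chr6:30307735-30308033: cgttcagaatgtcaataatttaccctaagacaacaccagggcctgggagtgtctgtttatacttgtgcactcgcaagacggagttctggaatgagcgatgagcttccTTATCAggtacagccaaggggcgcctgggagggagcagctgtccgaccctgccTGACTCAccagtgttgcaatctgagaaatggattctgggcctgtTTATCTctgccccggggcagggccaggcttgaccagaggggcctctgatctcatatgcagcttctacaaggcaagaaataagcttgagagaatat
Both Xpo7 regions held 2 GATA words, 1 of them inside a TAL1-GATA composite. Ube2h −3.3 kb held 2 GATA words and 1 NFE2 and AP-1 core, and Ube2o +74.8 kb held 1 GATA and 1 KLF word. Ube2o +8.1 kb held an NFE2 and AP-1 core, Ube2o +80.3 kb held that core and a KLF word, and the Trim10 −45.4 kb and Ube2h +98.7 kb windows held a CTCF word each.

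The 10 lists held 10698 to 19859 peaks on chromosomes 1 to 19, X and Y, and 13 to 34 of the regions around the 7 genes, or 1.22 to 1.90 per 1000 peaks. The shortest list, 24 h replicate 2, had the fewest of these regions and the longest, 6 h replicate 2, the most. The part that list size played in presence was not tested beyond the equal-sized lists given below. As a check of the labelled cell type, the promoters of the erythroid markers Epor, Klf1 and Tfrc had a peak in all 10 lists, whereas Slc4a1, Alas2, Hbb-bt and Hba-a1, which are defining markers of maturing red cells, had none in any. Tal1 had a promoter peak in 2 lists and Nfe2 in 7. No promoter of the 4 B cell, 5 myeloid, 4 megakaryocyte or 3 hepatocyte markers was listed. Promoter peaks were listed for 1 of 5 T cell markers (Lck, 4 lists), 1 of 4 mast cell markers (Kit, 9 lists) and 2 of 3 fibroblast markers (Col1a1 in 8 lists and Pdgfra in 3).

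**Figure D1:**
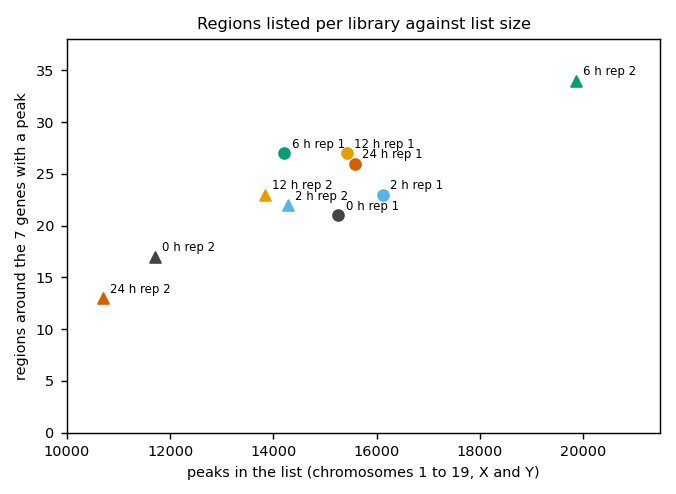
Each point is 1 library, with the number of peaks in its list on the x axis and the number of regions around the 7 genes that held a peak on the y axis; colours give the time point, circles replicate 1 and triangles replicate 2. The lowest point is 24 h replicate 2 with 10698 peaks and 13 regions, and the highest is 6 h replicate 2 with 19859 peaks and 34 regions.

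The 7 genes differed widely in how much open chromatin surrounded them. Ube2o had 16 regions in its window, more than 99.5% of protein-coding genes, at 11.1 regions per 100 kb. Xpo7 had 11 regions, more than 95.2% of genes, and Kmt5a had 10, more than 92.4%. These shares compare counts, which grow with the window. Per 100 kb Xpo7 had 5.18 in a window of 212 kb, and Kmt5a had 8.17 in 122 kb. Over all genes the median window was 117 kb and the upper quartile was 4.66 regions per 100 kb. Ube2h had 7 regions (3.62 per 100 kb), Trim10 had 4 (3.69), Hdac2 had 2 (1.57) and Trim58 had 1 (0.893). The median over all genes was 3 regions, with quartiles of 0 and 6, and 2.18 regions per 100 kb, against medians of 7 and 3.69 for the 7 genes. Most regions were not shared by every library: 8 of the 51 (15.7%) were in all 10 lists, against 21.5% of all regions, and 13 (25.5%) were in a single list, against 28.9%. Of the 30 distal regions 2 (6.67%) were in all 10 lists, against 6.64% of all distal regions. Of the 10 own promoter regions 3 (30%) were, and of the 11 neighbour promoter regions 3 (27.3%), against 49.9% of all promoter regions. These differences were not tested.

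**Figure D2:**
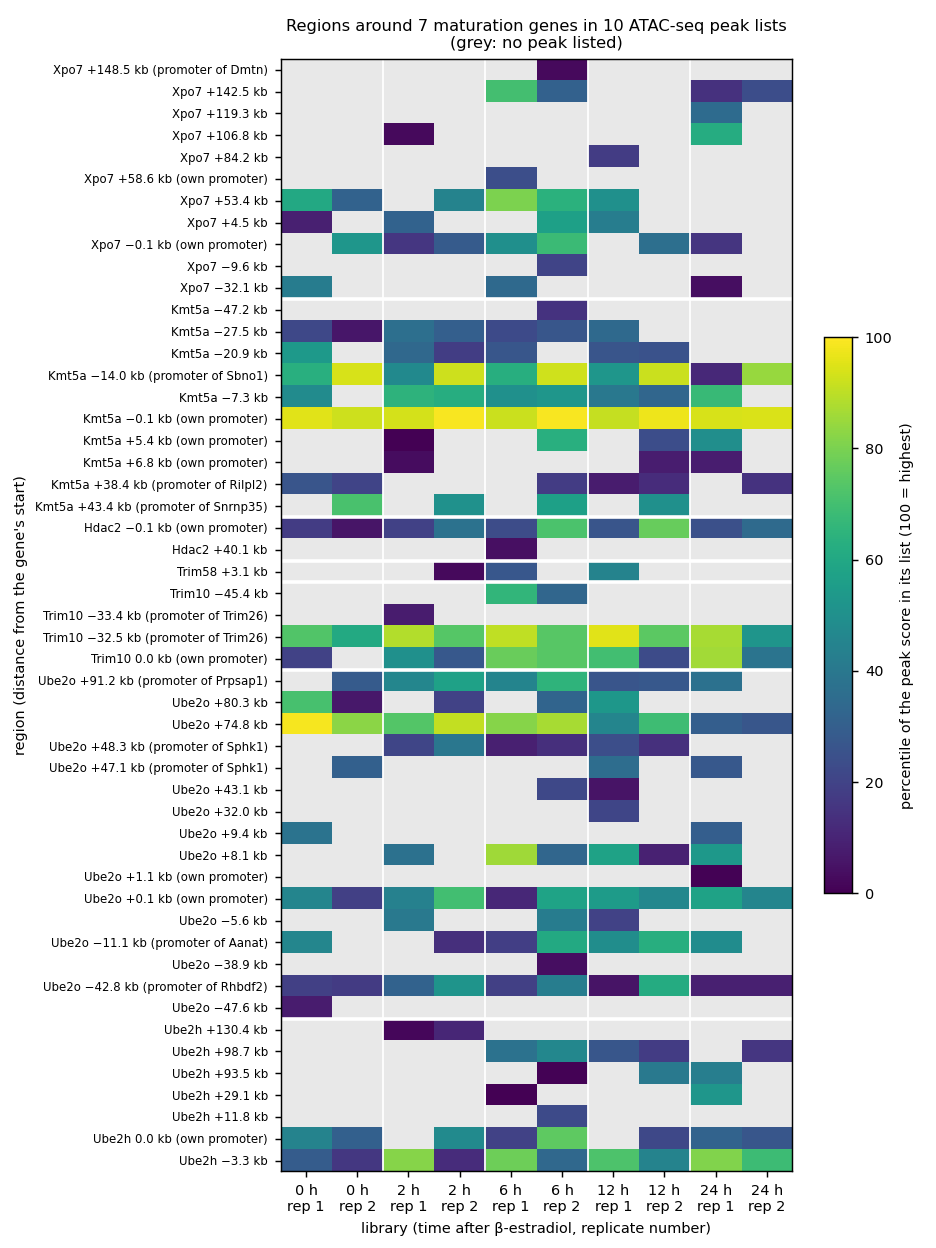
Rows are the 51 regions in gene order, columns are the 10 libraries by time after β-estradiol and replicate number, and colour is the percentile of the peak's score among the peaks of its own list (100 is the highest, grey means that no peak was listed). The row of the Kmt5a promoter is bright in every library, at 91.3 to 99.2, and most other rows are broken by grey cells.

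The height of a peak is given here as its percentile, the share of peaks in the same list with a lower score, since the score is a −log10 q-value that is not scaled between libraries. The lists differ in length, so a percentile also moves with the length of its list. Absent means that no peak was listed, which does not show closed chromatin, and in these bulk libraries fewer open cells and less opening per cell cannot be told apart. A promoter peak was in all 10 lists for 3 of the 7 genes (Kmt5a, Hdac2 and Ube2o), a state found for 26.6% of all protein-coding genes. It was in 9 lists for Trim10, 8 for Ube2h and 7 for Xpo7, where 17.9% of genes had a promoter peak in 1 to 9 lists. Trim58 had none in any list, as did 55.4% of genes.

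Among the genes of the condensing nucleus, the Kmt5a promoter (chr5:124439458-124440061, mm10) carried a peak near the top of every list. Its percentile was 95.5 and 92.3 in the 0 h libraries, 93.7 and 99.2 after 2 h, 91.8 and 99.1 after 6 h, 91.3 and 97.3 after 12 h, and 93.8 and 94.5 after 24 h, replicate 1 first here and throughout. The groups overlapped, with means of 93.9 ± 2.26 (SD, n = 2) at 0 h and 94.1 ± 0.518 (n = 2) after 24 h. All 10 summits lay upstream of the annotated start, at −222 to −119 bp. Internal Kmt5a starts carried further peaks, in 4 lists at +5.4 kb and in 3 lists at +6.8 kb, none of them at 0 h.

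Hdac2 stood in a sparse window, and its promoter (chr10:36973949-36975203) was in every list at lower ranks. The percentile was 17.9 and 5.65 at 0 h, 19.5 and 37.5 after 2 h, 23.3 and 71.7 after 6 h, 26.4 and 76.8 after 12 h, and 24.4 and 34.5 after 24 h. All 8 later libraries were above both 0 h libraries, but the replicates of 6 and 12 h lay far apart, with means of 47.5 ± 34.2 and 51.6 ± 35.6 (SD, n = 2) against 11.8 ± 8.65 at 0 h. Replicate 2 was the higher library at 4 of the 5 time points. The only other region of the window, +40.1 kb, was listed once, at 6 h replicate 1, at percentile 4.08.

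The Xpo7 promoter (chr14:70766460-70767067) was listed in 7 libraries. It was absent from 0 h replicate 1 and at percentile 52.6 in 0 h replicate 2, at 15.8 and 28.6 after 2 h, 49.8 and 68.0 after 6 h, absent and 36.7 after 12 h, and 15.4 and absent after 24 h. Its 7 summits lay upstream of the start, at −189 to −82 bp. No time point had it in both libraries where 0 h had it in neither, and the 0 h, 12 h and 24 h replicates disagreed on its presence. A second Xpo7 start, +58.6 kb inside the gene, was listed in 6 h replicate 1 alone at percentile 24.0.

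Of the tripartite motif genes, Trim10 had a promoter peak (chr17:36869161-36869819) in every treated library. The percentile was 19.8 in 0 h replicate 1 with no peak in 0 h replicate 2, 50.2 and 27.6 after 2 h, 77.2 and 74.1 after 6 h, 69.6 and 22.9 after 12 h, and 85.9 and 38.3 after 24 h. All 8 treated libraries ranked above the single 0 h value. The 6 h libraries were close to each other (75.6 ± 2.21, SD, n = 2), whereas those of 24 h were not (62.1 ± 33.7). A missing 0 h peak has no rank, so this promoter was outside the rank test, and 0 h replicate 1 held it, so it was not counted as gained. All 9 summits were upstream of its start, at −163 to −5 bp. At Trim58 the annotated start had no peak, and the single region of the window, intronic at +3.1 kb (chr11:58643234-58643933), was listed in 2 h replicate 2, 6 h replicate 1 and 12 h replicate 1 at percentiles 2.39, 27.3 and 44.9. No 0 h or 24 h library listed it.

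Both conjugating enzymes had promoters of middle rank. The Ube2o promoter (chr11:116580732-116581851) was at percentile 45.6 and 18.8 at 0 h, 44.0 and 69.8 after 2 h, 11.0 and 58.1 after 6 h, 54.7 and 46.3 after 12 h, and 57.6 and 45.6 after 24 h. Which times overlapped 0 h depended on the scale: on percentiles 12 h did not, whereas on the normal scores used in the rank test below 24 h did not, at −0.70 and −0.73 against −1.11 and −1.57 at 0 h. The Ube2h promoter (chr6:30304257-30304869) was at 44.8 and 30.7 at 0 h, absent and 47.8 after 2 h, 19.7 and 75.1 after 6 h, absent and 21.9 after 12 h, and 31.9 and 26.6 after 24 h. Its 0 h values lay inside the range of the later libraries.

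**Figure D3:**
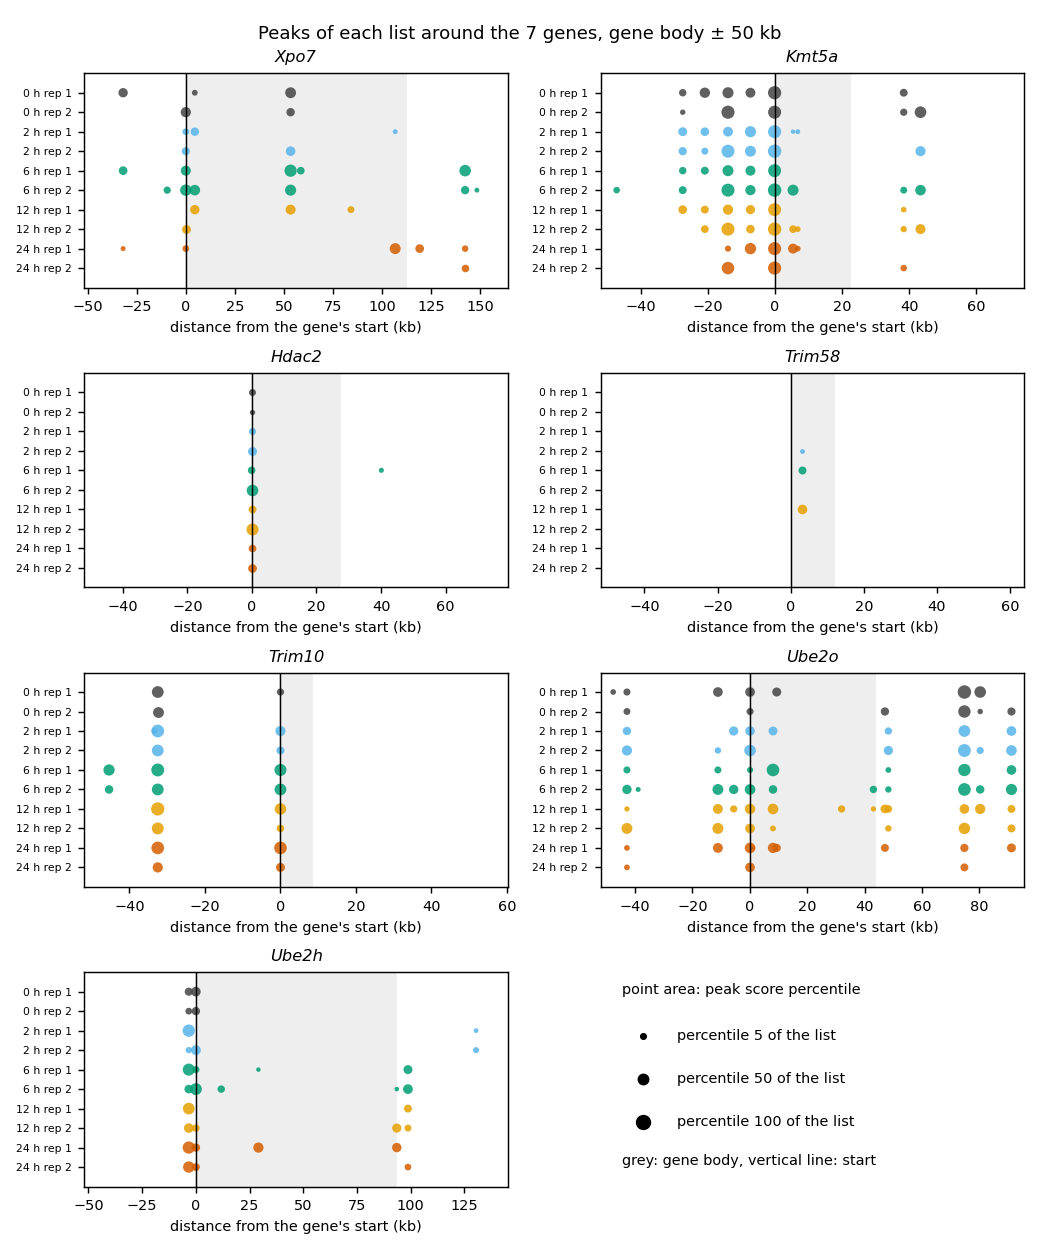
For each gene the x axis is the distance from its start in kb, in the direction of transcription, and each row is 1 library; a point is a peak, coloured by time point, whose area grows with its percentile, and grey shading is the gene body. Kmt5a shows a column of large points at 0 kb in all 10 rows, Trim58 shows 3 points in all, and Ube2o shows columns at +74.8 kb and −42.8 kb in all 10 rows.

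Presence was then compared with 0 h. A region was called gained when both libraries of a time point and neither 0 h library listed it, and lost in the opposite case; 2 against 2 libraries cannot give an exact p below 0.333, so these are counts without a test. After 2 h in β-estradiol 2 of the 51 regions were gained, where 2.67% of all regions were, and 1 was lost, where 1.15% were. After 6 h in β-estradiol 5 were gained (background 4.08%) and 0 lost (0.759%). After 12 h in β-estradiol 3 were gained (2.47%) and 0 lost (1.88%). After 24 h in β-estradiol 1 was gained (1.71%) and 3 were lost (3.51%). Over the 4 time points, which share the 0 h libraries, 6 regions (11.8%) were gained at least once and 4 (7.84%) were lost, against 7.65% and 4.42% of all regions. Of the 30 distal regions 5 were gained at least once and 3 were lost, where the backgrounds over all distal regions were 9.13% and 5.57%. These differences from the background amount to a few regions each and were not tested. Leaving out single libraries moved the counts, most of all 6 h replicate 1, without which 14 regions were gained after 6 h. Without 24 h replicate 2, 9 were gained after 24 h. A call then needs fewer libraries to agree, and the matching shares of all regions were not computed.

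**Figure D4:**
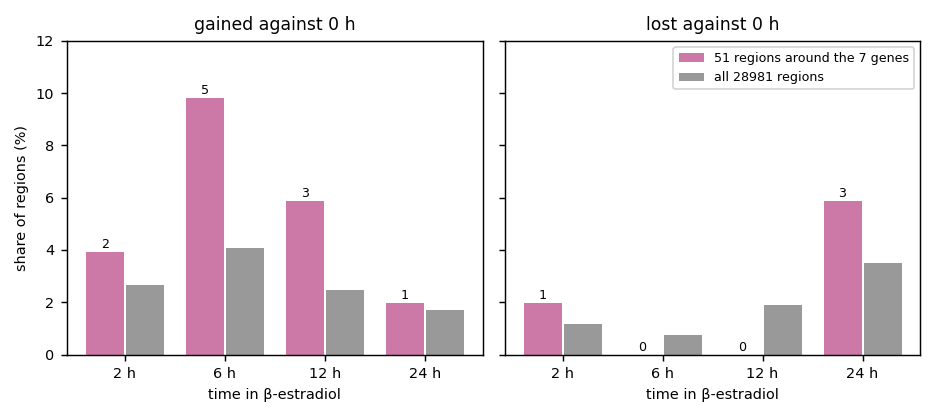
Bars give the share of regions, in percent, that were gained (left) or lost (right) against 0 h at each time point, for the 51 regions around the 7 genes and for all 28981 regions; the number above a coloured bar is the count of regions. The tallest pair is gained after 6 h, with 5 of 51 regions (9.80%) against 4.08% of all.

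The gene body of Xpo7 held a region that both 0 h and both 6 h libraries listed and neither 24 h library did. Xpo7 +53.4 kb (chr14:70712834-70713539, intronic) was at percentile 60.4 and 31.6 at 0 h, absent and 44.8 after 2 h, 80.1 and 63.8 after 6 h, 50.2 and absent after 12 h, and absent from both 24 h libraries, where it was called lost. This loss held in lists cut to the 10698 highest peaks each and with a score of at least 5. Beyond the far end of Xpo7, the +142.5 kb region (chr14:70623758-70624480) was absent at 0, 2 and 12 h, at 70.2 and 31.0 after 6 h, and at 14.2 and 23.6 after 24 h. It lies in an intron of Dmtn, which encodes the red cell membrane skeleton protein dematin, 2.9 kb from the nearest Dmtn start. It was thus gained at 6 and 24 h, of which the 6 h gain held with a score of at least 5 and neither held in equal lists.

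The 4 distal regions of Kmt5a, all upstream of it, gave 1 to 3 peaks per library up to 12 h and 1 and 0 after 24 h, where the library with 0 has the shortest list. Kmt5a −27.5 kb (chr5:124412098-124412716), in an intron of the neighbouring Sbno1, was at 21.8 and 5.88 at 0 h, 36.4 and 30.2 after 2 h, 22.4 and 26.9 after 6 h, 34.0 and absent after 12 h, and absent from both 24 h lists. It was called lost after 24 h from low 0 h ranks and was not called lost in equal lists or with a score of at least 5. The −20.9 kb region was in 6 lists, none of them after 24 h, but in only 1 of the 0 h libraries. The highest distal region of this gene by mean percentile, −7.3 kb (chr5:124432302-124432922, intergenic), was missing from 0 h replicate 2 and 24 h replicate 2 and was at 32.9 to 67.6 in the other 8 libraries. On the other side, the Rilpl2 promoter at +38.4 kb (chr5:124477924-124478615) was at 26.3 and 20.5 at 0 h, absent from both 2 h libraries (lost) and 6 h replicate 1, at 17.9 in 6 h replicate 2, at 7.58 and 12.8 after 12 h, and absent and 14.6 after 24 h. The Snrnp35 promoter at +43.4 kb was listed in 4 libraries, all of them replicate 2, at 50.2 to 71.5.

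Trim10 −45.4 kb (chr17:36823886-36824454, intergenic, nearest to the start of H2-M10.6) was listed at 6 h alone, at 65.8 and 32.9. It was thus gained after 6 h, which held with a score of at least 5 but not in equal lists.

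The Ube2o window had 3 regions that were gained or lost. Within an intron, Ube2o +8.1 kb (chr11:116572947-116573812) was absent at 0 h, at 37.3 and absent after 2 h, 85.9 and 33.1 after 6 h, 57.8 and 9.29 after 12 h, and 53.1 and absent after 24 h. It was gained at 6 and 12 h, and replicate 1 was the higher or the only library at each time. The 6 h gain held with a score of at least 5, and neither gain held in equal lists. At +48.3 kb (chr11:116532854-116533596), a promoter of the sphingosine kinase gene Sphk1 was absent at 0 h, at 20.9 and 39.8 after 2 h, 8.60 and 13.4 after 6 h, 24.1 and 13.9 after 12 h, and absent after 24 h. It was gained at 2, 6 and 12 h from low ranks, and none of the 3 gains held in equal lists or with a score of at least 5. Another Sphk1 promoter region, at +47.1 kb, was listed in 0 h replicate 2, 12 h replicate 1 and 24 h replicate 1, at 30.5, 35.9 and 27.4. The gene was thus not without a promoter peak at 0 or 24 h. Between Sphk1 and Prpsap1, the intergenic +80.3 kb region (chr11:116500745-116501433) was at 70.7 and 6.55 at 0 h, absent and 19.8 after 2 h, absent and 32.4 after 6 h, 52.8 and absent after 12 h, and absent from both 24 h lists. It was called lost after 24 h, but 0 h replicate 2 listed it near the bottom, and the call held in neither alternative.

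Beyond the end of Ube2h, the +98.7 kb region (chr6:30205415-30206139, intergenic) was absent at 0 and 2 h, at 37.7 and 46.5 after 6 h, 26.8 and 17.8 after 12 h, and absent and 15.9 after 24 h. It was gained at 6 and 12 h, and the 6 h gain was the only 1 of the 11 gains that held in equal lists. There its rank in 6 h replicate 2 was 10624, close to the cut at 10698. That gain did not hold with a score of at least 5, and the 12 h gain held in neither alternative. Ube2h +130.4 kb (chr6:30173863-30174412), in an exon of the noncoding gene Rncr4, was listed at 2 h alone, at 1.70 and 10.8, and its gain after 2 h held in neither alternative. Taking all calls, equal lists kept 1 of 11 gains and 1 of 4 losses, and a score of at least 5 kept 3 of 11 gains and 1 of 4 losses.

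For regions in all 10 lists the rank itself was tested. limma was fitted to the normal score of the rank (ranks mapped to a standard normal scale) over the 6234 regions in all lists, of which 8 lay around the 7 genes. This main fit had no term for the replicate number. No region passed an adjusted p of 0.05 in any of the 4 contrasts with 0 h or for the slope per time step (0% called in each direction and comparison). At an unadjusted p under 0.05, 97 regions were higher and 101 lower after 2 h, 91 and 82 after 6 h, 91 and 102 after 12 h, 129 and 131 after 24 h, and 151 and 166 by slope. Of the 8 regions, 2 passed that unadjusted threshold after 12 h, 1 after 24 h and 2 by slope. With the replicate number as a block 3 passed it after 24 h, 1 higher (Ube2h −3.3 kb) and 2 lower (Ube2o +74.8 kb and the Sbno1 promoter), and none passed the adjusted one. The median difference of the 8 regions from 0 h was 0.47 normal score units after 2 h, 0.07 after 6 h, 0.30 after 12 h and 0.11 after 24 h, against medians over all regions of 0.0054, 0.000443, −0.000628 and 0.00377. The medians over all regions are held close to no difference by construction, since the ranks of every library were mapped to the same scale. The medians of the 8 regions were not tested.

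The steepest course belonged to Ube2o +74.8 kb (chr11:116506324-116506989), an intergenic region 16.3 kb from the nearest start, that of Prpsap1, and the highest distal region of the 7 windows by mean percentile. Its percentile was 98.8 and 82.5 at 0 h, 73.1 and 90.8 after 2 h, 82.0 and 86.8 after 6 h, 45.6 and 68.8 after 12 h, and 29.8 and 26.9 after 24 h. Both 12 h and both 24 h libraries were below every earlier library, and both 24 h libraries were below those of 12 h. In rank within the list, it went from 183 of 15258 peaks at 0 h replicate 1 to 10928 of 15573 at 24 h replicate 1. In replicate 2 it went from 2045 of 11698 at 0 h to 7818 of 10698 at 24 h. On the normal score scale the 24 h mean was lower than the 0 h mean (−1.40 ± 0.15 against 1.20 ± 0.99, SD, n = 2 each), a difference of −2.60 with a standard error of 0.61 (limma, adjusted p = 0.724). The slope per time step was −0.62 with a standard error of 0.12 (limma, adjusted p = 0.462), equal to the smallest adjusted p of the slope over all 6234 regions. It did not pass the threshold. With the replicate number as a block the adjusted p values were 0.195 for 24 h and 0.115 for the slope.

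Ube2h −3.3 kb (chr6:30307550-30308236), in an intron of 1700095J07Rik upstream of Ube2h, ranked higher at 24 h than at 0 h in both libraries. Its percentile was 29.0 and 16.3 at 0 h, 81.9 and 12.6 after 2 h, 78.0 and 33.9 after 6 h, 72.1 and 44.7 after 12 h, and 80.9 and 68.4 after 24 h. Replicate 1 was the higher library at every time point. On the normal score scale both 12 h and both 24 h libraries were above both of 0 h, whereas 6 h replicate 2, the longest list, was the lowest of all 10 at −2.34, below −1.64 and −1.67 at 0 h. The difference in normal score after 24 h was 1.74 with a standard error of 0.82 (limma, adjusted p = 1), and the slope was 0.38 with a standard error of 0.17 (limma, adjusted p = 0.934). Neither passed the threshold. With the replicate number as a block the standard errors were 0.61 and 0.13 (limma, adjusted p = 0.498 and 0.470), and again neither passed. For the Hdac2 promoter the largest difference was after 12 h, 1.35 with a standard error of 0.62 (limma, adjusted p = 0.999, or 0.793 with the block).

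The other 5 regions in all lists were the Kmt5a and Ube2o promoters and 3 promoters of neighbours. Their unadjusted limma p values ran from 0.225 to 0.983 in the contrasts and from 0.293 to 0.785 for the slope, without the replicate block. With the block the Sbno1 promoter had the lowest of these, 0.0427 after 24 h (limma, adjusted p = 0.654). The Sbno1 promoter at Kmt5a −14.0 kb (chr5:124425656-124426362) was ordered by replicate number at all 5 time points, with replicate 2 at 91.1 ± 3.64 and replicate 1 at 47.6 ± 21.1 (SD, n = 5 libraries each). The Trim26 promoter at Trim10 −32.5 kb (chr17:36836720-36837474) had the opposite order at all 5, with replicate 1 at 86.8 ± 8.36 and replicate 2 at 67.1 ± 10.2. The Rhbdf2 promoter at Ube2o −42.8 kb (chr11:116623826-116624646) was at 5.39 to 61.6.

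**Figure D5:**
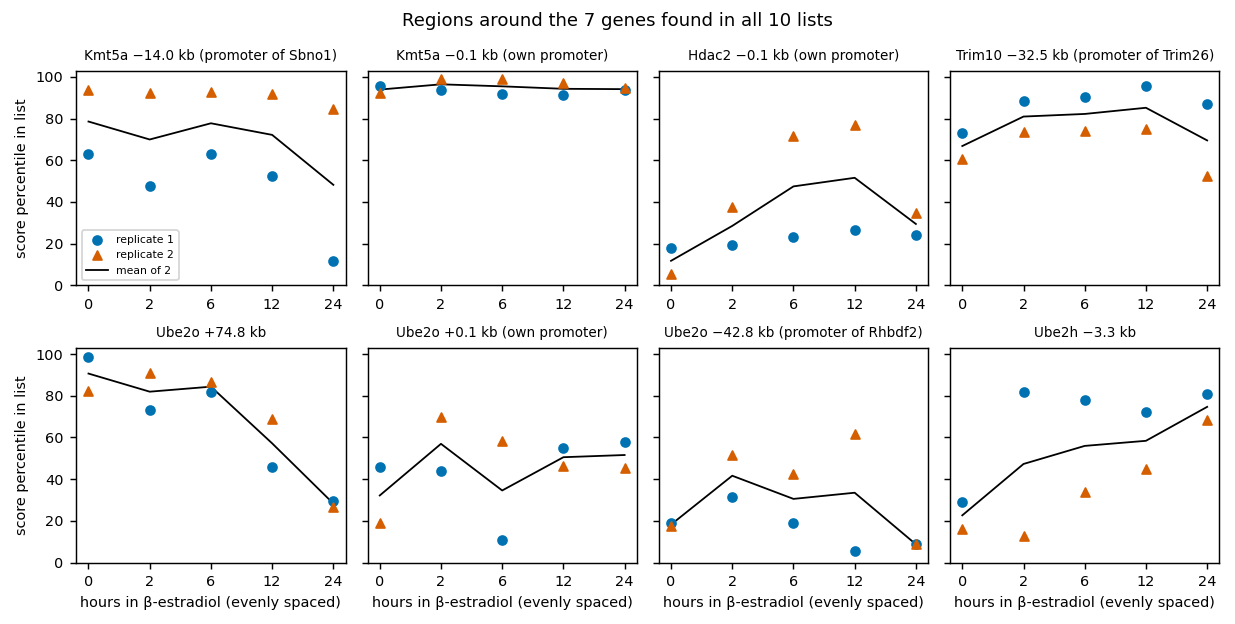
Each panel is 1 of the 8 regions in all 10 lists, with the time in β-estradiol on an evenly spaced x axis and the percentile of the peak score in its list on the y axis; circles are replicate 1, triangles replicate 2, and the line joins the means of 2. Ube2o +74.8 kb is at 98.8 and 82.5 at 0 h and at 29.8 and 26.9 after 24 h, no region passed the adjusted threshold, and replicate 2 is above replicate 1 at every time point for the Sbno1 promoter.

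Over all 51 regions, the short words given above were read in the same 299 bp windows. A GATA word was found in 22 of 51 (43.1%), against 34.3% of all regions, and in 20 of the 30 distal ones (66.7%), against 47.1% of all distal regions. The TAL1-GATA composite was in 4 distal regions (13.3%, against 9.15%), namely Xpo7 +53.4 kb, Xpo7 +142.5 kb, Ube2o +43.1 kb and Ube2h +11.8 kb. The KLF word was in 10 of 51 (19.6%, against 9.80%), and the NFE2 and AP-1 core was in 8 (15.7%, against 7.33%), 7 of them distal (23.3% of distal regions, against 9.61%). The ETS word was in none of the 51, where 8.46% of all regions held it, and 20.3% of all promoter regions. The CTCF word was in 6 (11.8%, against 15.8%). By gene, GATA words were in 6 of 11 Xpo7 regions, 5 of 7 Ube2h regions, 5 of 16 Ube2o regions, 3 of 10 Kmt5a regions and 1 region each of Hdac2, Trim58 and Trim10. The Trim10 promoter was the only region with a GATA word, a KLF word and an NFE2 and AP-1 core together. These are matches of letters and no measure of binding, and the differences from the shares of all regions were not tested.

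Among 4970 other promoter regions in all lists, those whose normal scores moved most like the Kmt5a, Hdac2 and Ube2o promoters were sought. They were Stradb/Trak2 (r = 0.910) and Hspb11/Lrrc42 (r = 0.904) for Kmt5a, Usp54 (0.891) and Glrx3 (0.883) for Hdac2, and Cwf19l2 (0.854) and 2310009B15Rik (0.848) for Ube2o. The 10 points of each r are the libraries, so these pairs share every difference between libraries. As the highest of 4970 values for each gene, the r values are raised by the selection itself, and they were not tested.

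Promoters of related pathway genes were read in the same way. Of 10 genes of chromatin condensation and cell cycle exit, 6 had a promoter peak in all 10 lists, 2 in some and 2 in none. Among them the deacetylase genes Hdac1 and Hdac3 were in all 10, and the acetyltransferase gene Kat2a was in none. Of 9 genes of the cytoskeleton of enucleation, 5 were in all 10 lists, 2 in some and 2 in none, with the GTPase genes Rac1 in 10 lists and Rac2 in 9. Of 10 genes of the ubiquitin system, 6 were in all and 4 in some. The ubiquitin gene Ubb and Maea, which encodes the partner ligase of UBE2H, had 10 lists each. Of 8 nuclear transport genes, 6 were in all and 2 in some, with the exportin genes Xpo1 and Cse1l in all 10. Over all protein-coding genes 26.6% had a promoter peak in all 10 lists, 17.9% in some and 55.4% in none. The counts of the pathway lists were not tested against these shares. No promoter of these lists was lost or passed the rank test. The promoter regions gained were 1 of Gid8, a subunit gene of the MAEA complex, at 2, 6 and 12 h, beside other Gid8 promoter peaks present at 0 h, and 1 of Rcc1, the exchange factor gene for Ran, at 12 and 24 h. In the whole windows of these lists, 77, 49, 63 and 47 regions in the order given, 5 (2.12%) were gained and 3 (1.27%) lost after 2 h, against backgrounds of 2.67% and 1.15%. After 6 h 9 (3.81%) were gained and 0 lost, where 4.08% and 0.759% of all regions were. After 12 h 6 (2.54%) were gained and 4 (1.69%) lost, against 2.47% and 1.88%. After 24 h 7 (2.97%) were gained and 7 (2.97%) lost, with backgrounds of 1.71% and 3.51%.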

How the data were processed

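ATAC-seq reads were mapped by the authors to mm10 and reads with a unique position were kept. Per the labels the tools were Bowtie 1.0.0, Picard and MACS2, whereas the study's methods name Bowtie2, so the aligner behind the lists is not settled. A shift of reads for the Tn5 cut is not given in the sources used here, which leaves summit positions uncertain by some bases. Peaks were called per library. Each deposited list gives summits and a score, the −log10 of the MACS2 q-value, with lowest scores of 1.30 to 1.35; the lists hold no counts and the depth of the libraries is unknown, so no interval is given and ranks within a list were compared.

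From the deposited lists, 4 or 5 mitochondrial peaks each were left out, summits were extended by 250 bp on each side, and overlapping windows of all lists were merged (Python 3.11.15, pandas 2.3.3, pysam 0.24.0). No 2 lists shared a peak of the same position and score. Promoters lay within 1 kb of a transcript start in the basic GENCODE M21 annotation (21938 protein-coding genes, 41525 starts). limma 3.58.1 in R 4.3.3 tested normal scores of ranks over all regions in all 10 lists with Benjamini-Hochberg adjustment at 0.05, after the scripts were tested on simulated data. Its p-values measure the spread between libraries, which the study describes as independent experiments. Groups and replicate numbers came from the sample titles. Deviations of libraries with the same replicate number correlated across regions in all 10 pairs of time points (r = 0.177 to 0.359, above 0.1), so the numbers were taken to pair the libraries. The main limma fit nevertheless had no term for this pairing. The fit with the replicate number as a block was run as an alternative. Alternatives changed the window half-width, flank, list size, score minimum, promoter distance, libraries, rank scale and limma settings.

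The genes, pathway lists and markers were chosen with earlier results of these data known. Named regions are each gene's promoter, every region gained, lost or called, and its highest distal region by mean percentile; sequences are shown for the 6 highest gained or lost regions; pathway genes are named where their promoter was gained, lost or called, and otherwise as the first 2 to 4 of a list; the 2 promoters most alike are named per constant promoter. Other regions named were chosen after their values were seen. Values of some genes of the marker and pathway lists are not reported here.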

Additional observations from a re-analysis of the deposited data

How the results depend on the processing

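The deposited lists limit what can be said to presence and rank, with 2 libraries per time point and an unknown depth. No rank call was made for any region around the 7 genes under any of 16 alternatives, and Ube2o +74.8 kb kept a negative difference at 24 h and a negative slope in all of them, with an adjusted p of 0.115 to 0.888 for the slope. The counts of gained and lost regions around the 7 genes were less stable, and the matching shares of all regions were not computed for the alternatives. With a half-width of 500 bp, 1 region was gained at 2 h. In equal lists the counts were 0 lost at 2 h, 2 gained at 6 h, 1 gained and 1 lost at 12 h and 1 lost at 24 h, with 2 regions and 1 promoter in all 10 lists. With a score of at least 5 they were 0 lost at 2 h, 1 gained and 1 lost at 12 h and 2 gained at 24 h, again with 2 regions and 1 promoter in all 10 lists; fewer peaks enter both by construction. With a flank of 25 kb, 1 region was gained at 2 h, 3 at 6 h and 0 at 24 h, 1 was lost at 24 h and 5 were in all lists. With a flank of 100 kb, 16 were in all lists.

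Leaving out each library in turn gave 2 to 8 regions gained at 2 h, 5 to 14 at 6 h, 3 to 8 at 12 h and 1 to 9 at 24 h, and 1 to 4, 0 to 2, 0 to 3 and 3 to 6 lost at these times, with 8 to 9 regions and 3 to 4 promoters in all lists. Leaving out 0 h replicate 1 gave 5, 8, 7 and 2 gained at 2, 6, 12 and 24 h and 2 and 1 lost at 2 and 6 h. Leaving out 0 h replicate 2 gave 4 gained at 2 h and 4, 2, 3 and 6 lost at the 4 times. At 2 h, 8 were gained and 4 lost without replicate 2. At 6 h, 14 were gained without replicate 1, and 9 gained and 2 lost without replicate 2. At 12 h, 6 were gained and 3 lost without replicate 1, and 8 gained and 1 lost without replicate 2. At 24 h, 2 were gained without replicate 1 and 9 without replicate 2. Fewer libraries must then agree for a call, and no matching share of all regions was computed.

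For presence, the replicate block, in which each replicate number is compared alone, gave 10, 11, 10 and 12 regions gained and 8, 5, 4 and 7 lost at 2, 6, 12 and 24 h for replicate 1, and 7, 18, 10 and 3 gained and 2, 1, 4 and 7 lost for replicate 2. Such a call sets 1 library against 1 and is looser than the main one. The matching shares of all regions were not computed, so these counts have no background. With the replicate number as a block in limma, 0 regions were called in each comparison, as without it, so the block changed no rank call.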
